A study of Mus musculus with 4 samples.

Results

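Semaphorins, plexins and neuropilins are a family of signalling proteins and their receptors, and their transcripts were followed here in mouse DN3 thymocytes, the CD4- CD8- T-cell precursors of the stage at which the T-cell receptor beta chain is rearranged. The genes were taken by name: every gene whose symbol begins with Sema3 to Sema7 or with Plxna, Plxnb, Plxnc or Plxnd, together with Nrp1 and Nrp2. This rule gave 31 genes of the 23282 analysed, namely 20 semaphorins, 9 plexins and 2 neuropilins. Of these 31 genes, 6 reached a mean of 1 FPKM (fragments per kilobase of transcript and per size of library, a level corrected for transcript length and depth) over the 4 libraries and were among the 10224 genes tested. The remaining 25 lay below that mean and are described by their levels.

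RNA was sequenced from 4 libraries, 2 labelled wild type (WT) and 2 labelled Gata3(g/g), a hypomorph of the gene for the T-lineage transcription factor GATA3, all on the C57BL/6 strain. In every group fetal liver cells from a donor had been transferred into an irradiated recipient, and DN3 thymocytes were sorted 16 weeks later. Whether the sort separated donor from recipient cells is not stated in the labels. Nor are the age and sex of the animals, or whether libraries of a genotype came from separate animals. The p-values therefore rest on the spread between these libraries, pooled in part over genes, and this spread may be technical. The labels place replicate 1 of both genotypes in one sequencing run and replicate 2 of both in another.

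The libraries held 14331705 to 26901913 estimated fragments. Gata3 itself stood at 62.4 and 58.5 FPKM in WT replicates 1 and 2 and at 120 and 96.1 FPKM in Gata3(g/g) replicates 1 and 2. The gene named in the genotype was therefore at its higher level under the hypomorph's label, and every direction given here follows the labels. Both libraries of run 2 also carried red-cell transcripts and S100a8 and S100a9, genes of neutrophils, of which run 1 held little: 6 erythroid markers summed to 340 and 365 FPKM in run 2 against 0.853 and 2.33 FPKM in run 1, and S100a8 stood at 33.3 and 40.2 FPKM against 0.660 and 0 FPKM. The 9 myeloid markers summed to 11.7 and 50.4 FPKM in WT replicates 1 and 2 and to 19.3 and 63.2 FPKM under the other label. One of them, the lysozyme gene Lyz2, differed by genotype, at 9.93 and 4.20 FPKM in WT against 18.7 and 13.6 FPKM (log2 fold change 1.27, adjusted p = 0.00061 in edgeR with the run as a block). In the same fit S100a8 and S100a9 were not called, with log2 fold changes of -0.08 and -0.80. The other 6 stayed below 1 FPKM in every library, with Cebpa and Mpo lower and Csf1r and Itgam higher under the Gata3(g/g) label. The part of myeloid cells in the differences below was not tested. Markers of B cells summed to 29.4 to 37.2 FPKM and of dendritic cells to 6.71 to 8.41 FPKM, overlapping between genotypes.

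Semaphorins are secreted or membrane-bound ligands grouped into classes by structure. Plexins are their main receptors and act through an intracellular domain that switches off small GTPases of the Ras and Rap kind, which alters integrin adhesion and the actin skeleton. Most secreted class 3 semaphorins bind plexins through a neuropilin coreceptor, class 4 semaphorins bind mostly B-type plexins and plexin D1, and the GPI-anchored Sema7A binds plexin C1 and beta1 integrins. In the thymus, plexin D1 is known to guide the movement of double-positive cells from cortex to medulla, and Sema4D (CD100) and Sema4A are known on T cells.

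The promoters of Nrp1, Plxnb2, Plxnd1 and Sema7a are shown because these are the genes of the family whose transcripts differed between genotypes in at least one fit below. Each window runs from 250 bases before to 50 bases after a RefSeq transcription start on the gene's strand, 5′ to 3′, in build GRCm38.p6. Capitals mark the GC box (GGGCGG or its reverse complement), a motif bound by SP-family factors.
Nrp1: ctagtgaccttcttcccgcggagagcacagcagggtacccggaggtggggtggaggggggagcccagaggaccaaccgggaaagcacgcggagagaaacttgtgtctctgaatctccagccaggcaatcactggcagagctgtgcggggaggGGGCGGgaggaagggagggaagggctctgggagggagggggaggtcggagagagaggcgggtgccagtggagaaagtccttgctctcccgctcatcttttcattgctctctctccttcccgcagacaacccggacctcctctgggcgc
Plxnb2: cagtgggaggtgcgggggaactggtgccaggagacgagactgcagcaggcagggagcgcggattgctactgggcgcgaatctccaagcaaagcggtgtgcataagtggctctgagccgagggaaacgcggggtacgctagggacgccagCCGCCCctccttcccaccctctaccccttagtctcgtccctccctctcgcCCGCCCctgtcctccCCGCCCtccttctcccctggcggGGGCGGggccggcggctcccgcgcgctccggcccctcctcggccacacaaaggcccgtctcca
Plxnd1: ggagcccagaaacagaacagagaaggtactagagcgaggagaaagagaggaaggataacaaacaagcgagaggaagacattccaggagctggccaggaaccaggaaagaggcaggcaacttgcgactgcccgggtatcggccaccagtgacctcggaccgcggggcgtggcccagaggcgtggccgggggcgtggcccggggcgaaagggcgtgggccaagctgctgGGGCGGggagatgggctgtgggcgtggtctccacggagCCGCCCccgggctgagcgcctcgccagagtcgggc
Sema7a: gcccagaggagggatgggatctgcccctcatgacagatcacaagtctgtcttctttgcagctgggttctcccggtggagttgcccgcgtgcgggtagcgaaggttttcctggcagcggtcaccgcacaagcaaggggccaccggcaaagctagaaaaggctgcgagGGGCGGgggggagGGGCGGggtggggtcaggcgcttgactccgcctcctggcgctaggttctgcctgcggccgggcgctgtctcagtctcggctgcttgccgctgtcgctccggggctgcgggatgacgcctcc
The Nrp1 window is chr8:128358823-128359122 on the plus strand, the Plxnb2 window chr15:89180739-89181038 on the minus strand, the Plxnd1 window chr6:115994956-115995255 on the minus strand, and the Sema7a window chr9:57939862-57940161 on the plus strand. The Sema7a start lies 23 bases before the locus start in the deposited table, while the other 3 starts coincide with it. They are GC-rich, at 64.0% for Nrp1, 70.3% for Plxnb2, 67.0% for Plxnd1 and 67.3% for Sema7a, where the median of all 32851 promoter windows of this length was 52.7%. GC boxes numbered 1 in the Nrp1 window, 4 in Plxnb2, 2 in Plxnd1 and 2 in Sema7a.

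Motifs of thymocyte transcription factors were searched in the same windows on both strands. None of the 4 windows held a GATA motif (any of the 6-letter runs AGATAA or TGATAA and AGATAG or TGATAG), the RUNX motif TGTGGT or the TCF/LEF motif CTTTGA. The GC box was searched after these had given no match. RefSeq windows were found for 26 of the 31 genes, 37 windows in all. Of these, 5 held a GATA motif, against 29.8% of all windows. The RUNX motif was in 5 and the TCF/LEF motif in 3, against 16.8% and 16% of all windows. The GC box was in 27 of the 37 windows and in 35.7% of all windows. A match or its absence describes the letters of these windows only.

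The family in DN3 cells was carried by a few genes. Sema4d, with a mean of 21.4 FPKM, ranked at the 88.9th percentile of all genes, followed by Nrp1 at the 83.8th and Sema4a at the 82.9th. Plxnd1 and Sema4b stood near the 62nd percentile, at 62.3 and 62.1, and Plxnb2 at 56.7. The order of Nrp1 and Sema4a was not the same in every library: Sema4a was above Nrp1 in both WT libraries, while Nrp1 was level with Sema4a in Gata3(g/g) replicate 1 (16.0 against 15.9 FPKM) and above it in replicate 2 (20.8 against 13.1 FPKM). At the other end, 18 genes had means under 0.2 FPKM, never exceeded 0.306 FPKM and had 0 to 38 fragments in a library.

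**Figure D1:**
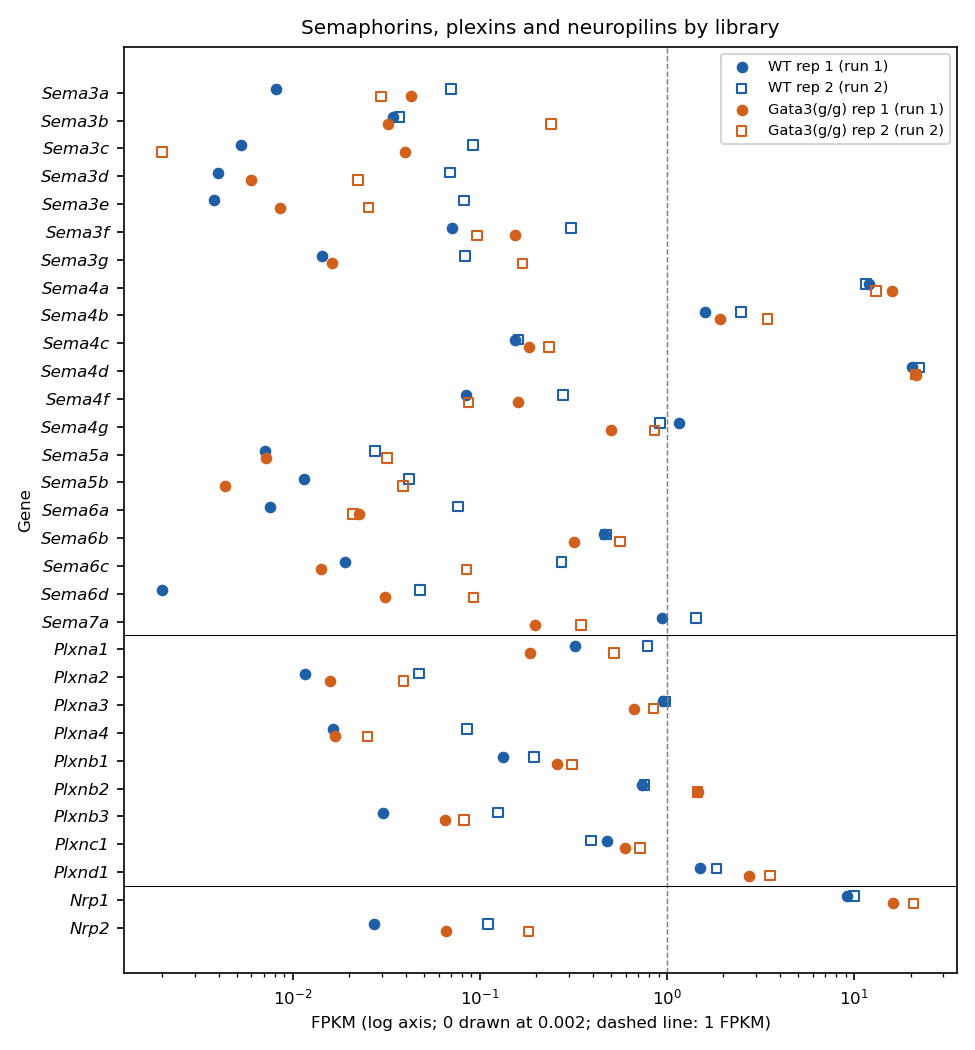
FPKM of each of the 31 genes in the 4 libraries (log axis, 1 point per library, colour and shape giving genotype and run), listed by class within semaphorins, plexins and neuropilins. Sema4d, Nrp1 and Sema4a lie furthest right, the Gata3(g/g)-labelled libraries lie right of the WT libraries for Nrp1, Plxnd1 and Plxnb2 and left of them for Sema7a, and 18 genes have means under 0.2 FPKM.

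The summed receptor level was higher in the Gata3(g/g)-labelled libraries, while the summed semaphorin level stayed in a narrow range. The FPKM of the 11 plexins and neuropilins summed to 13.4 and 15.3 in WT replicates 1 and 2 and to 22.1 and 28.5 in Gata3(g/g) replicates 1 and 2. The 20 semaphorins summed to 37.0, 40.7, 41.1 and 40.7 FPKM in the same order. Nrp1, Plxnd1 and Plxnb2 were each near 1.9-fold higher in mean FPKM, by 1.92-fold, 1.89-fold and 1.96-fold, and Sema7a was 4.37-fold lower.

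Whether these differences passed a test depended on the model. With genotype as the only term, edgeR's quasi-likelihood test with Benjamini-Hochberg adjustment over all 10224 genes called none of the 6 genes and none at all (0% of 10224, with 393 at an unadjusted p under 0.05), and DESeq2 called 88 (0.861%), none of them in the family. With the sequencing run as a block, edgeR called 705 genes, 6.9% of those tested. Of these, 399 (3.9%) were higher in the Gata3(g/g)-labelled libraries and 306 (2.99%) lower; without scaling beyond total counts the split was 464 higher of 674. Nrp1, Plxnd1 and Plxnb2 were called higher with the block, 3 of the 6 genes tested, and none was called lower. The filter sets part of this count, since Plxnb2 passed it only through the Gata3(g/g)-labelled libraries and Sema7a, lower in them, fell under it. DESeq2 with the block called the same 3 genes among 417 (4.08% of those tested), and limma with the block called none of them among 16 (0.156%). The residual degrees of freedom are 2 without the block and 1 with it. In edgeR with the block, the 95% intervals of the called family genes are far narrower than 1 degree of freedom alone would give. The spread behind these p-values is therefore mostly pooled over genes, and a gene's own libraries carry little of it. In FPKM, 4 of the 6 tested genes had both Gata3(g/g) values above both WT values, as did 14.2% of all genes tested, and none had both below, as did 14.8%; 29% of all genes tested did not overlap in either direction. In bulk RNA, a change in the number of cells that express a gene and a change in RNA per cell cannot be told apart.

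**Figure D2:**
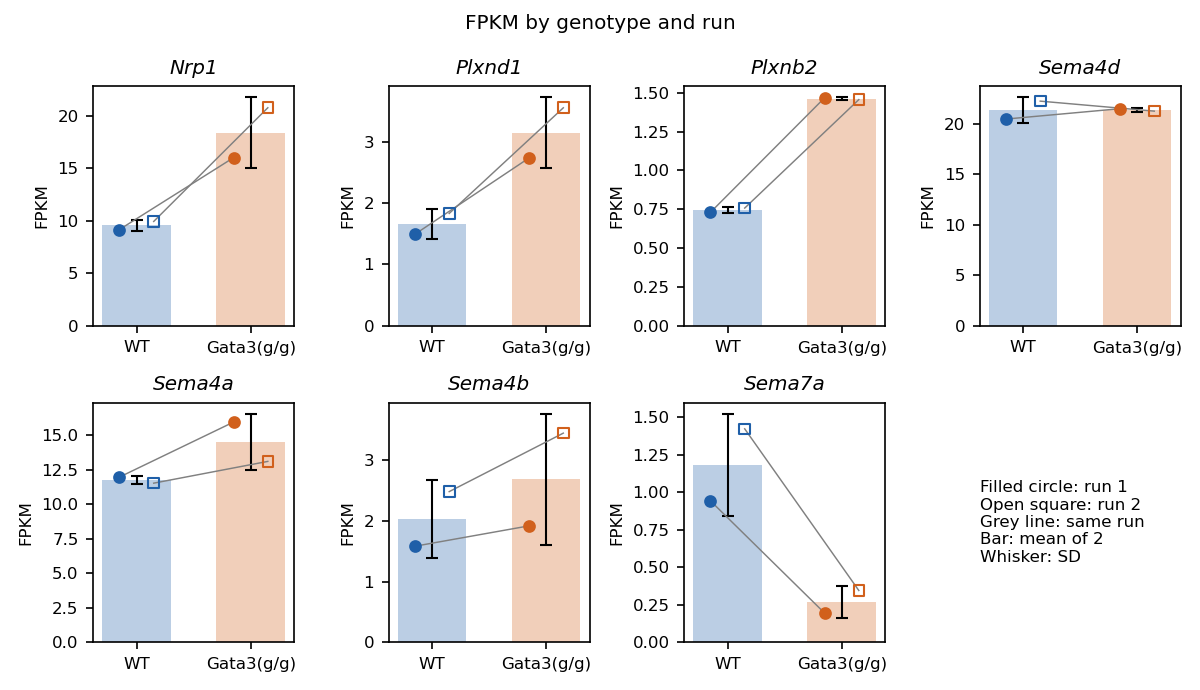
FPKM of the 6 tested genes and of Sema7a, which was not in the main test, in each library (points, filled for run 1 and open for run 2). Bars show means of 2 libraries, whiskers the SD and grey lines join libraries of the same run, with each panel's axis starting at 0. The genotypes do not overlap for Nrp1, Plxnd1, Plxnb2, Sema4a and Sema7a and overlap for Sema4d and Sema4b.

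Neuropilin 1, encoded by Nrp1 (chr8:128359073-128505475 in mm10, the build of all gene positions here), is the coreceptor for class 3 semaphorins and for VEGF-A. Its FPKM was 9.18 and 9.95 in WT replicates 1 and 2, and 16.0 and 20.8 in replicates 1 and 2 labelled Gata3(g/g). Both Gata3(g/g)-labelled libraries were above both WT libraries, and within that genotype the library of run 2 was the higher. The means were 9.56 ± 0.542 (SD, n = 2) and 18.4 ± 3.36 (SD, n = 2), from 1567 to 4847 fragments per library. The log2 fold change in edgeR with the run block was 0.94 (SE 0.126, 95% interval 0.67 to 1.20, adjusted p = 0.000138), and the difference was 0.82 within run 1 and 1.05 within run 2. Without the block edgeR gave a log2 fold change of 0.95 with adjusted p = 0.778, and limma on log2(FPKM + 1) with the block gave adjusted p = 0.122. The q-value in the authors' deposited table was 0.000263868.

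Nrp1 also made up a larger share of the receptors. Its share of summed plexin and neuropilin FPKM was 68.7% and 65.2% in the WT libraries and 72.5% and 72.9% in the Gata3(g/g)-labelled libraries. Relative to the FPKM of Sema4d it was 0.449 and 0.447 in WT, and 0.746 and 0.978 in Gata3(g/g) replicates 1 and 2. Nrp2, the other neuropilin, was at 0.0272 and 0.110 FPKM in WT and 0.0660 and 0.182 FPKM in replicates 1 and 2 labelled Gata3(g/g), from 7 to 38 fragments. The exons of Nrp1 overlap those of the microRNA gene Mir1903 over 80 bases, 0.818% of its exonic length.

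Nrp1 is expressed by other cells that a thymus sort could hold, among them plasmacytoid dendritic cells, regulatory T cells and endothelial cells. Of the 5 plasmacytoid dendritic cell markers, 1 was called higher with the block and none lower, and their summed FPKM was 386 and 353 in WT against 693 and 729 in the Gata3(g/g)-labelled libraries. Ly6d, which lymphoid cells also express, was the one called and made up most of that sum, at 290, 251, 608 and 649 FPKM. Siglech, the defining marker of the list, had 1 and 0 fragments in WT and 5 and 7 in Gata3(g/g) replicates 1 and 2. The other 3 were not called: Bst2 was at 89.4 and 96.2 FPKM in WT and 79.7 and 73.3 FPKM under the other label, Irf8 at 2.76 and 1.90 against 1.87 and 1.02 FPKM, and Tcf4 at 3.32 and 3.82 against 3.90 and 5.02 FPKM. None of the 5 regulatory T-cell markers was called, and their sums were 20.0 to 33.1 FPKM in WT and 35.6 and 36.2 FPKM in the other genotype. Ctla4 and Tnfrsf18 made up most of these sums. Ctla4 was at 17.5 and 7.34 FPKM in WT and 18.0 and 19.8 FPKM under the other label, and Tnfrsf18 at 12.9 and 10.4 against 14.4 and 14.1 FPKM. Ikzf4 was at 2.39 and 1.85 against 2.93 and 2.01 FPKM, and Il2rb at 0.210 and 0.260 against 0.135 and 0.224 FPKM. Foxp3 was at 0.0431 to 0.176 FPKM. The 5 endothelial markers summed to 19.9 and 17.7 FPKM in WT and 25.3 and 22.5 FPKM in replicates 1 and 2 labelled Gata3(g/g), nearly all from Pecam1, which was not called. The part of these cells in the Nrp1 difference was not tested.

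Among the plexins, Plxnd1 was the most abundant. Plxnd1 (chr6:115954811-115995005) encodes the receptor of Sema3E and, in some settings, of Sema4A. Its FPKM was 1.49 and 1.83 in WT replicates 1 and 2 and 2.73 and 3.55 in Gata3(g/g) replicates 1 and 2. The genotypes did not overlap, and run 2 was the higher in both. The means were 1.66 ± 0.239 and 3.14 ± 0.577 (SD, n = 2 each), and the log2 fold change in edgeR with the run block was 0.92 (SE 0.148, 95% interval 0.60 to 1.23, adjusted p = 0.000795). The within-run differences were 0.89 and 0.94. The call was absent without the block (edgeR, adjusted p = 0.987) and in limma with the block (adjusted p = 0.158). Its share of summed plexin FPKM was 35.9% and 35.2% in WT and 45.6% and 47.1% in the Gata3(g/g)-labelled libraries.

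Plxnd1 is known in double-positive thymocytes, the stage after DN3. Of the 5 double-positive markers, Cd8a and Cd8b1 were called higher with the block, and the 5 summed to 24.9 and 26.3 FPKM in WT and 28 and 26.4 FPKM in replicates 1 and 2 labelled Gata3(g/g). Cd8a, at 0.674 and 0.592 FPKM in WT and 1.71 and 1.37 FPKM under the other label, entered the test only through the group in which it was higher. Cd4, which defines that stage, was at 0.406 to 0.492 FPKM in the 4 libraries. The part of later cells in the Plxnd1 difference was not tested. All 11 DN3 markers were present at a mean of 1 FPKM or more, with sums of 3898 to 4449 FPKM. One of them was called with the block: Il2ra, the CD25 gene that marks this stage, was at 277 and 261 FPKM in WT and 569 and 492 FPKM in replicates 1 and 2 labelled Gata3(g/g) (log2 fold change 0.98, adjusted p = 0.00262 in edgeR). Its relation to the differences in Nrp1, Plxnd1 and Plxnb2 was not tested.

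Plxnb2 (chr15:89155549-89180788) encodes a plexin B that binds class 4 semaphorins and the ribonuclease angiogenin. Its FPKM was 0.730 and 0.758 in WT and 1.47 and 1.46 in the Gata3(g/g)-labelled libraries. Replicates differed little, and the genotypes were far apart. The gene passed the mean of 1 FPKM only through the Gata3(g/g)-labelled libraries, so its presence among the genes tested depended on the difference itself. Its means were 0.744 ± 0.0193 and 1.46 ± 0.00825 (SD, n = 2 each), from 130 to 486 fragments per library. The log2 fold change was 0.99 (SE 0.209, 95% interval 0.54 to 1.43, adjusted p = 0.00767 in edgeR with the run block), and the runs taken singly differed by 1.02 and 0.93. Without the block edgeR gave adjusted p = 0.838, and limma with the block gave 0.206. With a mean of 1.10 FPKM it lay just inside the filter, and Plxna3 at 0.861 and Sema4g at 0.857 lay just outside.

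The other plexins were below the filter and none was called in edgeR with the block and no filter, a fit that called 988 of 21355 genes (4.63%) and 4 of the 31 family genes. Of these 4, Nrp1, Plxnd1 and Plxnb2 were higher, against 2.57% of genes called higher. Plxna1, a partner of neuropilins in class 3 signalling, was at 0.323 and 0.787 FPKM in WT and 0.185 and 0.519 in Gata3(g/g) replicates 1 and 2. Its genotypes overlapped, since run 2 exceeded run 1 by 1.11 and 1.36 on the log2 scale, and its adjusted p in that edgeR fit was 0.0849. Its exons overlap the antisense gene Gm26811 over 970 bases, 10.7% of its exonic length, and the strand setting of the counting is not given in the sources used here, so reads of the 2 genes cannot be told apart. Plxna3, also a neuropilin partner, was at 0.948 and 0.981 FPKM in WT and 0.668 and 0.846 in the Gata3(g/g)-labelled libraries, with adjusted p = 0.603 in that edgeR fit.

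Plxnb1, the high-affinity receptor of Sema4D, was low throughout, at 0.132, 0.195, 0.257 and 0.311 FPKM in the order WT replicates 1 and 2 and Gata3(g/g) replicates 1 and 2. The libraries labelled Gata3(g/g) were the higher in both runs, by 0.90 and 0.69 on the log2 scale, with adjusted p = 0.165 in edgeR with the block and no filter. Plxnc1, the plexin that binds Sema7A, was at 0.474 and 0.393 FPKM in WT and 0.592 and 0.718 in the Gata3(g/g)-labelled libraries, also without overlap between genotypes, and with adjusted p = 0.217 in the same edgeR fit. By class, the plexin A genes summed to 1.30, 1.90, 0.885 and 1.43 FPKM, and the plexin B genes to 0.893, 1.08, 1.79 and 1.85 FPKM, in that order of libraries. The plexin B sums did not overlap between genotypes and the plexin A sums did. Over all 31 genes, 7 had both Gata3(g/g) values above both WT values, as did 15.3% of the 21355 genes with a fragment, and 3 had both below, as did 10.8% (26.1% in either direction).

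**Figure D3:**
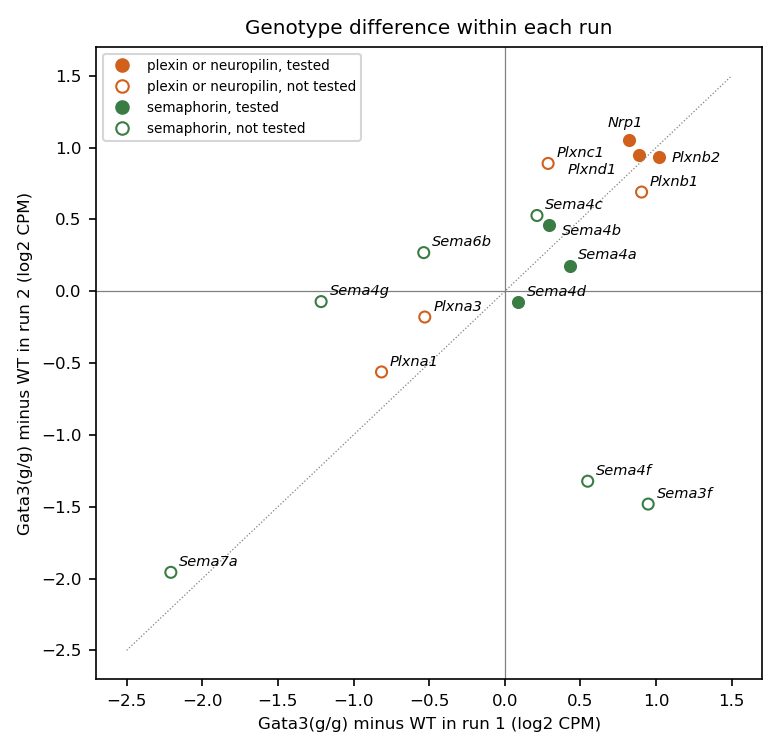
Difference in log2 CPM between the Gata3(g/g)-labelled libraries and WT in run 1 (x axis) and run 2 (y axis) for the 16 genes with a mean of at least 0.15 FPKM; filled points, the 6 tested genes; open points, the 10 below the filter; dotted line, equal differences. Nrp1, Plxnd1 and Plxnb2 lie near the line at about 1 in both runs, Sema7a near -2 in both, and Sema4d near 0.

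Of the ligands, the membrane-bound class 4 made up nearly all the semaphorin transcript. Sema4a, Sema4b and Sema4d together accounted for 91.9%, 89.1%, 95.8% and 92.8% of summed semaphorin FPKM in WT replicates 1 and 2 and Gata3(g/g) replicates 1 and 2. No class 4 gene passed the test. The 6 class 4 genes summed to 35.4 and 37.6 FPKM in WT and 40.2 and 39.0 FPKM in replicates 1 and 2 labelled Gata3(g/g).

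Sema4d (chr13:51701248-51793644) encodes CD100, a T-cell semaphorin that binds plexin B1, plexin B2 and CD72. Its FPKM was 20.5 and 22.2 in WT and 21.5 and 21.2 in the Gata3(g/g)-labelled libraries, so that both of the latter lay between the WT values. The means were 21.4 ± 1.25 and 21.4 ± 0.171 (SD, n = 2 each). The log2 fold change in edgeR with the run block was 0.01 (SE 0.122, adjusted p = 0.983), and its 95% interval of -0.25 to 0.27 does not contain the fold changes of Nrp1, Plxnd1 or Plxnb2. Sema4d was 28 and 29.3 times Plxnb2 in FPKM in WT and 14.7 and 14.6 times in the Gata3(g/g)-labelled libraries.

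Sema4a (chr3:88435962-88461182) encodes a class 4 semaphorin known for costimulating T cells. Its FPKM was 12 and 11.5 in WT and 15.9 and 13.1 in Gata3(g/g) replicates 1 and 2, without overlap. The means were 11.7 ± 0.312 and 14.5 ± 2.01 (SD, n = 2 each), the log2 fold change was 0.31 (SE 0.138, 95% interval 0.01 to 0.60), and the gene did not pass (adjusted p = 0.214 in edgeR with the run block). The difference was 0.43 in run 1 and 0.18 in run 2.

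Sema4b (chr7:80186841-80226524) encodes a further class 4 semaphorin. Its FPKM was 1.58 and 2.48 in WT and 1.92 and 3.45 in Gata3(g/g) replicates 1 and 2. Run 2 was higher than run 1 by 0.68 in WT and 0.85 in the other genotype on the log2 scale, more than the genotypes differed within a run (0.29 and 0.46), and the genotypes overlapped. The gene did not pass, with 0.38 as its log2 fold change (SE 0.185) and adjusted p = 0.257 in edgeR with the run block. Without the block, the log2 fold change of 0.40 turned to -0.086 when Gata3(g/g) replicate 2 was left out. Sema4g, at 1.15 and 0.919 FPKM in WT and 0.501 and 0.854 in Gata3(g/g) replicates 1 and 2, was lower in both of the latter, by 1.21 on the log2 scale in run 1 and 0.07 in run 2 (adjusted p = 0.13 in edgeR with the block and no filter). Sema4c stayed between 0.153 and 0.233 FPKM.

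Sema7a (chr9:57940135-57962865) encodes the GPI-anchored semaphorin that binds plexin C1 and integrins containing beta1. It had 116 and 121 fragments in WT replicates 1 and 2 and 32 and 38 in Gata3(g/g) replicates 1 and 2, which is 0.943, 1.42, 0.195 and 0.346 FPKM. Both WT libraries were well above both Gata3(g/g)-labelled libraries, with means of 1.18 ± 0.339 and 0.271 ± 0.106 (SD, n = 2 each). Its mean over the 4 libraries, 0.727 FPKM, kept it out of the main test. With no filter on level, edgeR with the run block gave a log2 fold change of -2.15 (SE 0.321, 95% interval -2.78 to -1.52, adjusted p = 3.81e-09), in a fit that called 440 of 21355 genes lower (2.06%). In that fit the interval had the width given by a normal distribution. A gene's own spread between libraries therefore carried almost no weight in the p-value. The difference for Sema7a was -2.21 within run 1 and -1.96 within run 2. Without the block and with no filter, edgeR gave adjusted p = 0.115 and DESeq2 0.0609, and DESeq2 with the block gave 0.00694. The authors' deposited table gave a q-value of 0.0240918.

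The authors' deposited table holds a test for 11 of the 31 genes. It gave q-values under 0.05 for 4 of them, with Nrp1, Plxnd1 and Plxnb2 higher and Sema7a lower in the Gata3(g/g)-labelled libraries. Over all genes with a test in the authors' deposited table, 456 of 11123 (4.1%) were under that value, 2.29% higher and 1.81% lower.

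The secreted class 3 semaphorins, ligands of neuropilin and plexin A or D complexes, were near the limit of detection. The 7 genes summed to 0.140, 0.738, 0.298 and 0.582 FPKM in WT replicates 1 and 2 and Gata3(g/g) replicates 1 and 2, from 0 to 27 fragments per gene and library. Sema3c had 0 fragments in Gata3(g/g) replicate 2, which allows up to 0.166 CPM (fragments scaled to the size of the library) by counting error alone. The 2 class 5 genes summed to 0.0186 to 0.0704 FPKM. The 4 class 6 genes, membrane-bound ligands of A-type plexins, summed to 0.487, 0.868, 0.387 and 0.758 FPKM, most of it from Sema6b at 0.460, 0.471, 0.319 and 0.560 FPKM. Sema6d had 0 fragments in WT replicate 1, which allows up to 0.142 CPM.

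Most of these low genes were higher in run 2, as were most low genes of the whole table. In WT, 23 of the 25 genes below the filter were higher in run 2 in CPM (92%), compared with 67% of 11131 genes below the filter in the whole table. In the Gata3(g/g)-labelled libraries the counts were 20 of 25 (80%) and 58.2%. The summed CPM of the 25 genes was 1.52-fold higher in run 2 in WT and 1.57-fold higher in the other genotype. The corresponding sums over all genes below the filter were 1.90-fold and 1.37-fold higher. For the class 3 genes alone the sum was 6.57-fold higher in WT, from 20 fragments in run 1 and 89 in run 2. In the other genotype it was 1.75-fold higher, from 64 and 75 fragments, with 4 of these 7 genes higher in run 2. Sema3f and Sema4f differed between genotypes in opposite directions in the 2 runs, by 0.95 and -1.48 for Sema3f and 0.55 and -1.32 for Sema4f on the log2 scale. The run 2 libraries are those with the erythroid transcripts and S100a8, and the part of these cells in the run difference was not tested.

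The partners of semaphorin signalling, a list of 79 genes for alternative receptors, other neuropilin ligands, cleaving enzymes, kinases, small GTPases and actin regulators, were measured in the same fit. This list was chosen with earlier results of these data known. All 79 were found, and 45 reached a mean of 1 FPKM. In edgeR with the run block 6 were higher in the Gata3(g/g)-labelled libraries, none was lower and 39 did not pass, where 3.9% of all genes tested were higher and 2.99% lower. One of the 6, Fes, entered the test only through the group in which it was higher. Their median log2 fold change was 0.13, against 0.01 over all genes tested. Without the block edgeR called none of them, and limma with the block none either. With the block and no filter a seventh was called, Mst1r, the receptor of macrophage-stimulating protein, which was lower, at 3.17 and 6.68 FPKM in WT and 2.89 and 3.54 FPKM under the other label (log2 fold change -0.53, adjusted p = 0.0393 in edgeR, against 0.0840 with the filter).

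Among receptors and coreceptors, 1 of 6 tested genes was called. Cd44, the hyaluronan receptor that is lost as thymocytes enter the DN3 stage, was at 1.16 and 1.08 FPKM in WT and 2.42 and 3.12 FPKM in replicates 1 and 2 labelled Gata3(g/g). Its log2 fold change was 1.23 (SE 0.197, adjusted p = 0.000709 in edgeR with the run block), and DESeq2 without the block gave adjusted p = 0.0423. Cd72, a lymphocyte receptor of Sema4D, was at 4.21, 3.45, 6.41 and 3.71 FPKM in the order WT replicates 1 and 2 and Gata3(g/g) replicates 1 and 2, and did not pass (adjusted p = 0.424 in edgeR with the block). Itgb1, the integrin subunit bound by Sema7A, was at 22.7, 13.3, 21.4 and 16.8 FPKM and did not pass either (adjusted p = 0.629 in edgeR with the block). Timd2, a mouse receptor of Sema4A, had no fragments in WT, which allows up to 0.142 and 0.209 CPM in replicates 1 and 2, and at most 7 in a Gata3(g/g)-labelled library.

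The other 5 partners called higher were on the list as a neuropilin ligand, under kinases, as a small GTPase and as an actin regulator. Lgals1, a galectin that binds neuropilin 1, was at 176 and 129 FPKM in WT and 240 and 194 FPKM in replicates 1 and 2 labelled Gata3(g/g), a log2 fold change of 0.52 (adjusted p = 0.0159 in edgeR with the block). Pik3r1, a regulatory subunit of PI3 kinase, was at 10.9 and 11.7 FPKM against 15.8 and 17.2 FPKM (0.56, adjusted p = 0.00917 in edgeR). Rap1b, a GTPase of the kind that plexins inactivate, was at 47.3 and 30.9 FPKM in WT and 59.1 and 52.2 FPKM in the other genotype (0.54, adjusted p = 0.0188 in edgeR). For these 3 genes the call held in DESeq2 with the block. In edgeR without the block, the log2 fold change of Rap1b (0.52) was 0.25 without WT replicate 2 and 0.82 without WT replicate 1, and that of Lgals1 (0.51) was 0.32 when WT replicate 2 was left out and 0.33 when Gata3(g/g) replicate 1 was.

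Ssh1 and Fes were called in edgeR with the block but not in DESeq2 with it. Ssh1, a phosphatase that activates cofilin, was at 0.781 and 1.71 FPKM in WT and 1.5 and 3.02 FPKM in Gata3(g/g) replicates 1 and 2, overlapping between genotypes and higher in run 2. Its log2 fold change was 0.88 (adjusted p = 0.0332 in edgeR and 0.151 in DESeq2, both with the block). Fes, a tyrosine kinase that acts below plexin A, was at 1.20 and 0.535 FPKM in WT and 2.22 and 1.21 FPKM in the other genotype, higher in run 1 (1.02, adjusted p = 0.0390 in edgeR and 0.190 in DESeq2). The cleaving enzymes, collapsin response mediators and MICAL proteins of the list held no called gene.

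**Figure D4:**
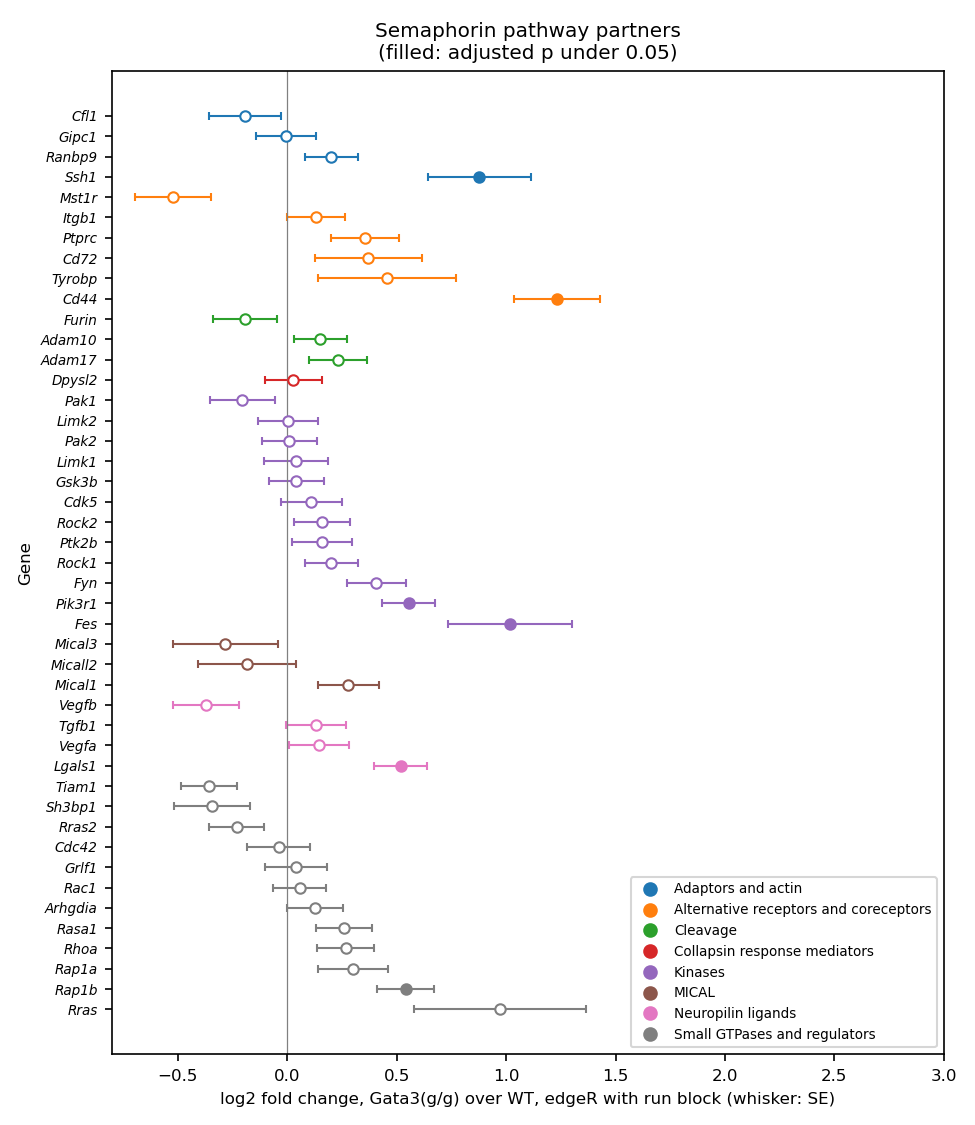
Log2 fold change of the 45 tested partner genes, Gata3(g/g)-labelled libraries over WT, in edgeR with the run block (points; whiskers, SE; colour, role; filled points, adjusted p under 0.05). The 6 filled points, Cd44, Fes, Ssh1, Pik3r1, Rap1b and Lgals1, all lie right of 0, between 0.52 and 1.23.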

How the data were processed

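Total RNA was made into libraries with a NuGEN kit, per the labels' protocols. Per the submitters' processing notes, TopHat2 2.0.8b, Bowtie2 2.1.0 and Cuffdiff 2.1.1 were used with mm10. The authors deposited FPKM values, estimated counts of fragments and their own comparison with log2 fold changes, p-values and q-values per gene. A test score and fragment signal scaled between libraries, both by the authors as deposited, were not used. Of 23285 genes, 3 marked HIDATA were left out. Estimated counts, 97.7 to 98.9% of them within 0.01 of whole numbers, were rounded and tested with edgeR 4.0.16 (quasi-likelihood, TMM, mean FPKM of at least 1, Benjamini-Hochberg over 10224 genes, threshold 0.05). Alternatives used DESeq2 1.42.0, limma 3.58.1, other filters and scalings, and each library left out. Scripts were tested on simulated data. The labels tie replicate numbers to a shared run; deviations of same-numbered libraries correlated across 10224 genes (Pearson 0.754, Spearman 0.758), and genes are not independent. Within-run differences are in log2 CPM with a prior count of 2. Genes with a mean of 1 FPKM, and partners called with the block, are named. The genes and lists were chosen with earlier results of these data known. At these depths 3 fragments are 0.112 to 0.209 CPM. Exon overlaps are from GENCODE M21 and promoters from RefSeq.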

Additional observations from a re-analysis of the deposited data

How the results depend on the processing

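Genotype alone called 0 genes of all those tested, 0 of the family and 0 of the partner list. The replicate block gave 705, 3 and 6, the block without scaling beyond total counts 674, 3 and 6, the block with no filter 988, 4 and 7 (the added partner Mst1r lower), the block with a mean of at least 5 FPKM 348, 1 and 3, and the block in DESeq2 417, 3 and 4. No filter without the block gave 58 genes, and DESeq2 without it 88 genes with 1 partner. Limma gave 5 genes at a pseudocount of 1 and 4 at 0.1, and with the block 16 and 4, none of them in the family. Leaving out 1 library gave 1 to 11 genes and 0 in the family or partner list. The median log2 fold change of the 6 tested family genes was 0.66. It was 0.39 in limma at a pseudocount of 1 with and without the block, and 0.53 to 0.90 with 1 library left out. Other filters changed which genes entered the median. Over all 31 family genes it was -0.021 with no filter and 0.056 with the block and no filter. Over Sema4d, Nrp1 and Sema4a, the family genes with a mean of at least 5 FPKM, it was 0.33, and 0.32 with the block. The median of the tested partners was 0.15, and 0.20 without scaling, and 0.14 to 0.18 with 1 library left out. Over partners of any level it was 0.031 with no filter and 0.053 with the block and no filter. Without the block, Sema4d ranged from -0.084 without WT replicate 1 to 0.083 without WT replicate 2, Sema4b from -0.086 without Gata3(g/g) replicate 2 to 0.78 without WT replicate 2, Sema4a from 0.17 without Gata3(g/g) replicate 1 to 0.44 without Gata3(g/g) replicate 2, Rap1b from 0.25 without WT replicate 2 to 0.82 without WT replicate 1, Lgals1 from 0.32 without WT replicate 2 to 0.73 without WT replicate 1, Fes from 0.49 without Gata3(g/g) replicate 1 to 1.65 without WT replicate 1, and Ssh1 from 0.26 without Gata3(g/g) replicate 2 to 1.55 without WT replicate 2. Sema7a with no filter and no block ranged from -2.52 to -1.81 with 1 library left out (edgeR adjusted p 0.0111 without WT replicate 1, up to 1 in the others), an alternative chosen after seeing the data. Apart from the genes entering each median, the cause of these changes was not tested. With the block, a fit that leaves out a library has no residual degrees of freedom and was not run. For the 18 genes with 0 to 38 fragments a library, differences were not detectable at this depth.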
